A study of Mus musculus with 10 samples.

Results

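The data described here were the expression values of 10 imprinted genes of the mouse growth network (Dlk1, Meg3, Rian, Peg3, Mest, Cdkn1c, Plagl1, Grb10, Nnat and Ndn) in sarcomas of 2 genetically engineered mouse models. The genes were taken by name from a table of read counts with 56750 features, and all 10 had a row. Bulk RNA-seq of whole tumors was compared between 3 dFLEx tumors (170019, 170024 and 170025) and 2 KP tumors (3800 and 3802). The dFLEx mice, labelled dFLEx CDS +/-, carried 1 copy of a CIC::DUX4 fusion transgene at the Rosa26 locus behind the CAG promoter. The transgene is switched on only after both Cre and FLPE act, and both were delivered as plasmids by electroporation of hind limb muscle. The KP mice carried a floxed p53 gene (p53fl/fl in the labels). The study gives an age range for dFLEx mice at plasmid delivery, and no age of a sequenced animal at tumor collection was used here. How and where the sequenced KP tumors were induced was not used here either. Every tumor had been divided as RNA into 2 duplicates, so 10 libraries were labelled. Of these, 9 had a column, and tumor 3802 entered with its first library alone (its other library is not analysed here). The tumor was the replicate, and its duplicates were summed.

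Imprinted genes are expressed from only 1 parental copy, which is set by DNA methylation laid down in the germline. Many of them act on fetal growth and are turned down in most tissues after birth, and skeletal muscle progenitors and regenerating muscle are among the tissues where several are known to be used. As a broad rule for imprinted genes, paternally expressed ones favour growth and maternally expressed ones restrain it. The rule does not hold for every member, since the paternally expressed Ndn is known to restrain proliferation. The reads used here do not separate the parental copies.

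Library totals ran from 20503474 counts (3802) to 46302223 counts, and 3802 also had the largest number of features with a count (36904, against 24280 to 31768 in the other 8 libraries). The CIC_DUX4 feature stood at 105, 202 and 423 CPM in 170019, 170024 and 170025, at 0 counts in 3800 and at 6 counts in 3802, which fits the labels. CPM are counts scaled to a common library total after TMM correction for composition. In the edgeR quasi-likelihood test on tumor sums, 45 of 24743 tested genes (0.182%) had an adjusted p under 0.05. The p-values measure only the spread between 3 and 2 tumors.

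Of the 10 members, 7 had a higher and 3 a lower fitted level in dFLEx tumors, and none passed the test (0 of 10, against 0.182% of all genes). The lowest adjusted p was 0.215 (edgeR quasi-likelihood test, Benjamini-Hochberg adjusted), and 2 members, Dlk1 and Cdkn1c, had an unadjusted p under 0.05, which 10.6% of all genes had. In 3 members (Dlk1, Peg3 and Cdkn1c) each dFLEx tumor lay above both KP tumors, a pattern that 13.7% of all genes showed. No member lay below both KP tumors in each dFLEx tumor, against 11.7% of all genes. The median log2 fold change of the members was 0.82, beside -0.18 over all tested genes. A second test, DESeq2 on the same tumor sums, called 2 members, Dlk1 and Cdkn1c, both higher in dFLEx tumors, where it called 3.46% of all genes higher. EdgeR on the 9 libraries as if they were independent called the same 2 members, but it called 17.1% of all genes as well. In whole tumors, fewer cells of a type and less RNA per cell cannot be told apart, and this holds for every value given here.

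**Figure D1:**
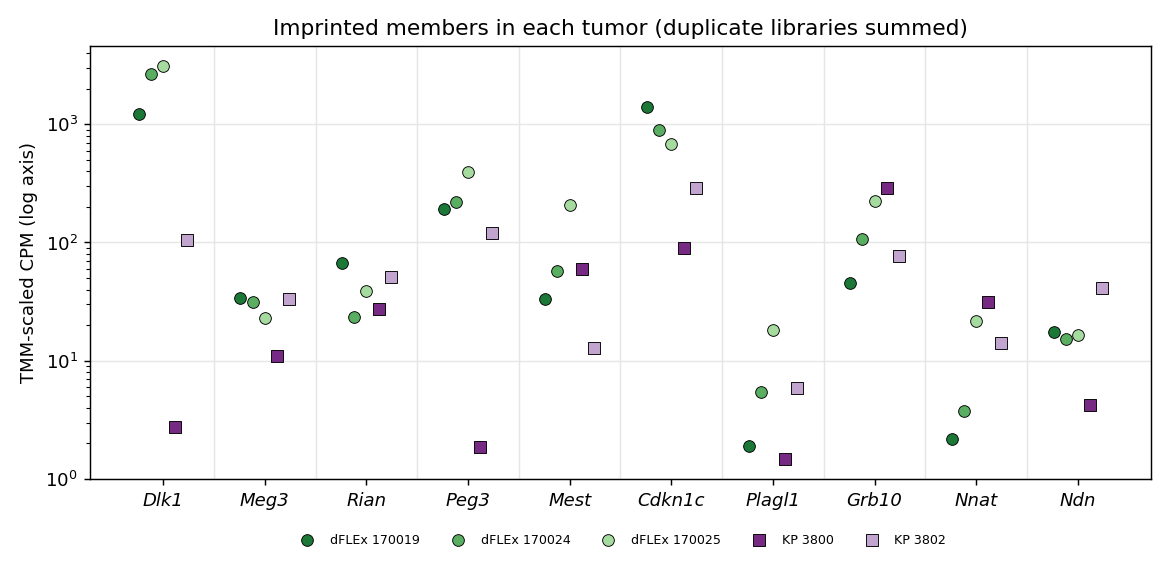
Each point is 1 tumor, with TMM-scaled CPM on a log axis, circles for the 3 dFLEx tumors and squares for the 2 KP tumors. Dlk1, Peg3 and Cdkn1c have all 3 dFLEx tumors above both KP tumors, and the other 7 members overlap.

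The start regions of the members that the comparison turns on are shown first. The RefSeq promoter table (build GRCm38.p6, 250 bases before to 50 after each start) held 32851 promoters, and 9 of the 10 members had an entry, 13 entries in all. Cdkn1c had none. The sequences of Dlk1 and Peg3 are given because both genes were higher in every dFLEx tumor. That of Meg3, the maternally expressed neighbour of Dlk1, is given because it was not. All 3 read 5′ to 3′ on the gene's strand, and capitals mark CG dinucleotides, the sites of DNA methylation, and the hexamer TGCCGC bound by the imprint-protecting zinc finger protein ZFP57, on either strand.
Dlk1, chr12:109452573-109452872, plus strand: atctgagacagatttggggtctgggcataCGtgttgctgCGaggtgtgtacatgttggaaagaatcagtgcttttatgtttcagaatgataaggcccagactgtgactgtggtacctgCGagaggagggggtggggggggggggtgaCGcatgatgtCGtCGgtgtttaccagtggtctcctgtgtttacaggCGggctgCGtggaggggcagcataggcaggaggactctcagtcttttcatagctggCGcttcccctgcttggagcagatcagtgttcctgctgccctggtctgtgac
Meg3, chr12:109540746-109541045, plus strand: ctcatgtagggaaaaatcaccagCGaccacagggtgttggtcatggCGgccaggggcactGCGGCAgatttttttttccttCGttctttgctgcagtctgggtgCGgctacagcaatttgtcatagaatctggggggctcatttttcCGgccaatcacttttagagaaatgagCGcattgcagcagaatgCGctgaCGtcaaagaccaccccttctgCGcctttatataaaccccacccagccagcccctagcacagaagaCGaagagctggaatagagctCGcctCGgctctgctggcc
Peg3, chr7:6730370-6730669, minus strand: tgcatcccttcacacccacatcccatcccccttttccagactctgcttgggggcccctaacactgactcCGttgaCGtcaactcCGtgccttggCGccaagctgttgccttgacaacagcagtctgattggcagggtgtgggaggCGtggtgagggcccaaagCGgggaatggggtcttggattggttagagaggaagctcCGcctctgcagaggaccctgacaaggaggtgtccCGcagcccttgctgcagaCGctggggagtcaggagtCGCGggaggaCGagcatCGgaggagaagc

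The Dlk1 window held 9 CG dinucleotides, and the Meg3 and Peg3 windows printed above held 13 each, where the median over all promoters was 7. Meg3 had another entry (109545148 to 109545447, sequence not printed), which held only 1 CG dinucleotide and no TGCCGC. Across the 13 entries of the members the number ran from 0 (Rian) to 45 (1 of 2 entries of Grb10), and 11 entries were above that median. The octamers TGAATGAA and TGAATGGA, which the CIC part of the fusion is known to bind, were searched on both strands and were found in 0 of the 13 entries, where 2.47% of all promoters held one. TGCCGC was found in 6 entries of 5 members (Meg3, Mest, Plagl1, Grb10 and Nnat), against 11.6% of all promoters. The Mest entries that held it (30737800 to 30738099 and 30737803 to 30738102) overlap almost wholly, so they are not separate finds. The hexamer contains a CG dinucleotide, and the members' entries had a median of 13 of these, against 7 over all promoters. The part of CG content in the finds was not tested. The windows of Dlk1 and Peg3 held neither motif within these 300 bases, which says nothing of either factor elsewhere in the genes.

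Dlk1 encodes a transmembrane and secreted protein with EGF-like repeats that is related to Notch ligands, is paternally expressed and keeps preadipocytes and other progenitors from differentiating. Its row lay on chromosome 12 (GRCm39, 109418749 to 109429262, plus strand) and shared no exon bases with another feature. It stood at 1231, 2678 and 3136 CPM in 170019, 170024 and 170025, and at 2.75 and 105 CPM in 3800 and 3802. The groups did not overlap, and even 170019, the lowest of the dFLEx tumors, was 11.7-fold above 3802. Duplicate libraries of a tumor differed by at most 1.27-fold. The fitted log2 fold change was 5.45 (SE 1.50, edgeR adjusted p = 0.215), the largest among the members. The 2 KP tumors differed 38.1-fold from each other, which is far more than the 2.55-fold range within dFLEx tumors. Without 3802 the log2 fold change was 9.75 and Dlk1 passed the edgeR test, and without 3800 it was 4.65 and did not. In each of these fits 1 KP tumor stood for its group and was assumed to vary like the dFLEx tumors.

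Per kilobase of exon, Dlk1 stood at 218, 473 and 554 CPM per kb in the dFLEx tumors, above 99.1% to 99.9% of the 44382 features with a count in any library. In 3802 it was above 95.1% of them, at 18.6 CPM per kb, and in 3800 above 67.8%, at 0.487 CPM per kb.

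Levels between genes were compared per kilobase of exon. In dFLEx tumors the mean level was highest for Cdkn1c (486 CPM per kb) and Dlk1 (415 CPM per kb), whose tumors overlapped, and every tumor of both lay above every tumor of the other 8 members. Mest (25.1 CPM per kb), Peg3 (19.7 CPM per kb) and Grb10 (13.8 CPM per kb) came next, followed by Nnat (5.07 CPM per kb) and Ndn (4.47 CPM per kb), and the tumors of neighbours in this order overlapped. Meg3 (1.54 CPM per kb), Rian (1.35 CPM per kb) and Plagl1 (1.09 CPM per kb) were lowest and did not differ beyond their spread. The low place of Meg3 and Rian rests on their annotated exon length (19.07 and 31.98 kb, against 3.694 kb for Ndn and 1.829 kb for Nnat). Without division by length, the dFLEx means of Meg3 (29.5 CPM) and Rian (43.2 CPM) were above those of Ndn (16.5 CPM) and Nnat (9.28 CPM). In KP tumors Cdkn1c was again highest (93.5 CPM per kb), with both tumors above all values of the others. It was followed by Grb10 (20.1 CPM per kb), Nnat (12.3 CPM per kb), Dlk1 (9.52 CPM per kb), Mest (9.16 CPM per kb), Ndn (6.18 CPM per kb) and Peg3 (4.48 CPM per kb), and neighbours in this order overlapped. Rian (1.22 CPM per kb), Meg3 (1.16 CPM per kb) and Plagl1 (0.470 CPM per kb) had the lowest KP means as well. This order held in 3802 but not in 3800. There Peg3 (0.136 CPM per kb) was lowest, below Plagl1 (0.187 CPM per kb). Dlk1 (0.487 CPM per kb) also lay below Meg3 (0.578 CPM per kb) and Rian (0.857 CPM per kb) in 3800.

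Meg3 and Rian are maternally expressed long noncoding RNAs that lie downstream of Dlk1 in the same imprinted cluster, and Rian hosts small nucleolar RNAs. Meg3 (chromosome 12, GRCm39, 109506879 to 109538165) stood at 33.8, 31.5 and 23.0 CPM in 170019, 170024 and 170025, and at 11.02 and 33.2 CPM in 3800 and 3802. One KP tumor lay within the dFLEx range and the other below it, and the log2 fold change was 0.42 (SE 0.67, edgeR adjusted p = 0.925). Rian (109570242 to 109628150) stood at 66.7, 23.5 and 39.2 CPM in the dFLEx tumors, and at 27.4 and 50.6 CPM in 3800 and 3802. Both KP tumors lay within the dFLEx range (log2 fold change 0.15, SE 0.66, edgeR adjusted p = 0.977), and the sign of the small difference turned under other scalings. With 3 and 2 tumors, sizeable differences in either RNA could also have gone undetected. Cdkn1c, with a log2 fold change of 2.38 and a similar SE (0.73), also missed the threshold (edgeR adjusted p = 0.264).

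Dlk1 thus stood in very different proportions to Meg3 and Rian in the tumors. Per kilobase, the ratio of Dlk1 to Meg3 was 123, 286 and 459 in 170019, 170024 and 170025, 0.843 in 3800 and 10.7 in 3802. The ratio of Dlk1 to Rian was 104, 644 and 452 in the dFLEx tumors and 0.568 and 11.7 in the KP tumors. Both ratios were higher in each dFLEx tumor than in either KP tumor. Against Mirg and Dio3, described below, the proportions did not part the groups clearly. The ratio of Dlk1 to Mirg was 33.5, 78.1 and 165 in the dFLEx tumors and 9.44 and 33.3 in the KP tumors, so 170019 and 3802 were almost equal. The ratio of Dlk1 to Dio3 was 3.9, 21.9 and 22.1 against 1.08 and 9.46, and the groups overlapped. These ratios were chosen after the values were seen and were not tested.

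The 3 other genes listed for this cluster were all higher in each dFLEx tumor. Dio3, the paternally expressed deiodinase that inactivates thyroid hormone, stood at 113, 43.9 and 51.0 CPM in the dFLEx tumors and at 0.914 and 3.98 CPM in 3800 and 3802. Its log2 fold change of 4.84 (SE 0.99) gave the lowest adjusted p of any imprinted gene examined (0.117, edgeR), which still misses the threshold. Rtl1, a paternally expressed gene derived from a retrotransposon, stood at 4.204, 18.7 and 31.1 CPM against 0.349 and 1.67 CPM, with 8.40% of its exon bases shared with microRNA features. Rtl1 lies on the minus strand, and since counting ignored strand, reads of either strand outside those bases entered its count. Mirg, a maternally expressed microRNA host RNA, stood at 47.4, 44.2 and 24.6 CPM against 0.376 and 4.06 CPM. Mirg is usually described as part of the same maternal noncoding stretch as Meg3 and Rian, but its values did not follow theirs. Per kilobase, the ratio of Mirg to Meg3 was 3.66, 3.66 and 2.79 in the dFLEx tumors, and 0.0893 and 0.320 in 3800 and 3802. This ratio, too, was chosen after the values were seen and was not tested. In KP tumors it rests on few Mirg counts (12 and 16 in the libraries of 3800 and 100 in 3802). Over the 6 genes of the cluster, 4 were higher in every dFLEx tumor (Dlk1, Dio3, Rtl1 and Mirg), against 13.7% of all genes, and DESeq2 on tumor sums called the same 4, against 3.46% of all genes called higher.

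**Figure D2:**
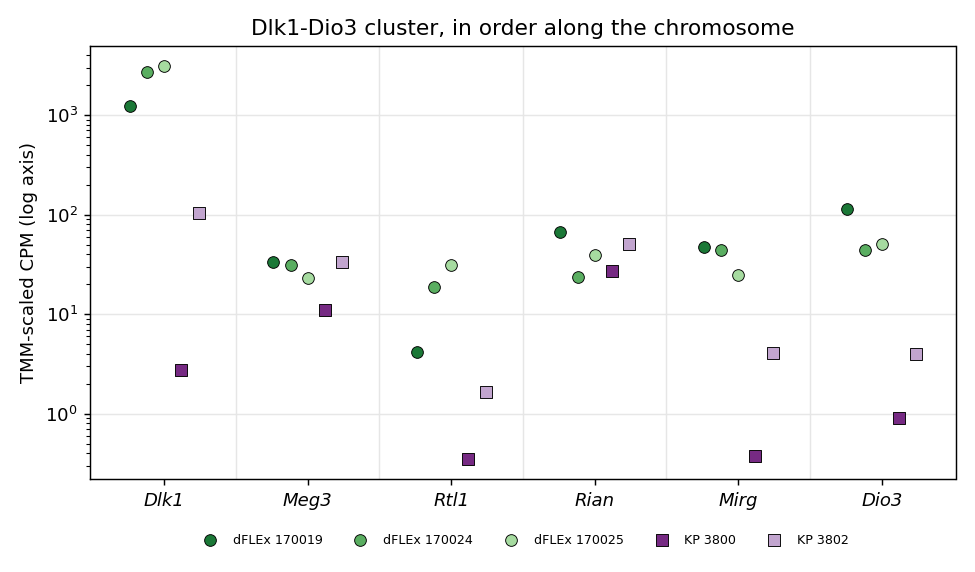
Each point is 1 tumor, with TMM-scaled CPM on a log axis, for the 6 genes of the Dlk1-Dio3 cluster in their order along the chromosome. Dlk1, Rtl1, Mirg and Dio3 separate the groups, whereas Meg3 and Rian, which lie between them, overlap.

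Cdkn1c encodes p57, a maternally expressed inhibitor of cyclin-dependent kinases that halts the cell cycle, and it lies in the Kcnq1 cluster on chromosome 7 (GRCm39, 143012076 to 143014787, minus strand). It stood at 1404, 893 and 678 CPM in 170019, 170024 and 170025, and at 90.3 and 291 CPM in 3800 and 3802. Each dFLEx tumor lay at least 2.33-fold above the higher KP tumor. The log2 fold change was 2.38 (SE 0.73), with an unadjusted p of 0.0119 and an adjusted p of 0.264 (edgeR), and DESeq2 gave an adjusted p of 0.0359. The log2 fold change ran from 1.93 to 3.48 when single tumors were left out, the narrowest range relative to its size among the members that separated. Cdkn1c was also abundant in the KP tumors. Per kilobase it stood at 333 to 688 CPM per kb in dFLEx tumors and at 44.3 and 143 CPM per kb in 3800 and 3802, above at least 97.5% of features in every tumor. A predicted gene, Gm44732, overlapped 30.7% of its exon bases, and reads there were left out of the count in all tumors alike.

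The 5 other genes listed for the Kcnq1 cluster did not all follow Cdkn1c. All 5 had a positive fitted fold change, but none passed the edgeR test. Phlda2, a maternally expressed restrainer of placental growth, was at 5.20, 1.23 and 1.61 CPM in the dFLEx tumors, at 0.618 CPM in 3800 and at 0 counts in 3802. Kcnq1ot1, the paternally expressed noncoding RNA that silences the cluster, stood at 15.2, 24.2 and 16.1 CPM in the dFLEx tumors, at 1.196 CPM in 3800 and at 19.4 CPM in 3802, so that the groups overlapped.

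Peg3 encodes a paternally expressed zinc finger protein known from fetal tissue, placenta and muscle stem cells, and lies on chromosome 7 (GRCm39, 6706891 to 6733430, minus strand). It stood at 190, 220 and 396 CPM in 170019, 170024 and 170025, and at 1.85 and 120 CPM in 3800 and 3802. The groups did not overlap, but 170019 was only 1.58-fold above 3802, while 3802 was 64.9-fold above 3800. The log2 fold change was 2.14 (SE 1.36, edgeR adjusted p = 0.735). Without 3802 it was 7.19 and passed the test, and without 3800 it was 1.33 and did not. Limma-voom, fitted to single libraries with a random effect for the tumor, called it (adjusted p = 0.0472), but DESeq2 on tumor sums (adjusted p = 0.424) and edgeR on the 9 libraries (adjusted p = 0.229) did not.

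Usp29 starts beside Peg3 on the other strand, and the promoter windows of the 2 genes shared 263 of 300 bases. It stood at 10.5, 9.66 and 22.2 CPM in the dFLEx tumors, at 2 counts in 3800 and at 7.60 CPM in 3802. The tumors ranked for Usp29 as they did for Peg3 at the top and the bottom, with 170025 highest and 3800 lowest. Zim1, a maternally expressed zinc finger gene of the same cluster, lay the other way, at 0.821, 1.11 and 2.66 CPM against 6.52 and 2.68 CPM, and its lowest KP value was almost equal to its highest dFLEx value.

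Plagl1 encodes ZAC1, a paternally expressed zinc finger transcription factor that is known as a regulator of other genes of the imprinted network. It was scarce, at 1.92, 5.48 and 18.2 CPM in 170019, 170024 and 170025, and at 1.46 and 5.89 CPM in 3800 and 3802. The dFLEx tumors alone spanned 9.48-fold, and the groups overlapped (log2 fold change 1.22, SE 1.06, edgeR adjusted p = 0.848). Without 170025 the log2 fold change was -0.02, so its positive value rested on that tumor.

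Mest, a paternally expressed hydrolase-like gene of the mesoderm, stood at 33.3, 57.4 and 207 CPM in 170019, 170024 and 170025, and at 59.5 and 12.8 CPM in 3800 and 3802. Only 170025 lay above 3800 (log2 fold change 1.46, SE 1.00, edgeR adjusted p = 0.773), and without 170025 the log2 fold change was 0.33. Mest was also the member whose duplicates differed most, at 48.3 and 17.0 CPM in the 2 libraries of 170019, a 2.84-fold difference. In the other 39 pairs of member and tumor the duplicates differed by at most 1.47-fold, with a median of 1.06-fold over all 40. The 3′ end of Mest overlaps Copg2 on the other strand (23.1% of the exon bases of Mest), and since counting ignored strand, reads lying in that overlap were left out.

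Grb10 encodes an adaptor that dampens insulin and IGF receptor signalling, and is maternally expressed in most tissues. It stood at 45.4, 106 and 225 CPM in 170019, 170024 and 170025, and at 289 and 77.2 CPM in 3800 and 3802. The KP tumors enclosed 2 of the 3 dFLEx tumors (log2 fold change -0.54, SE 0.83, edgeR adjusted p = 0.922), and without 3800 the log2 fold change turned to 0.88.

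Nnat encodes neuronatin, a paternally expressed small membrane protein of the endoplasmic reticulum. It stood at 2.16, 3.78 and 21.9 CPM in 170019, 170024 and 170025, and at 31.1 and 14.02 CPM in 3800 and 3802. The dFLEx tumors spanned 10.1-fold, and 170025 lay between the KP tumors (log2 fold change -1.28, SE 1.00, edgeR adjusted p = 0.820). Without 170025 the log2 fold change was -2.93 and the groups no longer overlapped, but the gene did not pass the test.

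Ndn encodes necdin, a paternally expressed protein of the MAGE family that restrains proliferation and takes part in muscle and nerve differentiation. It was the most even member among dFLEx tumors, at 17.6, 15.4 and 16.6 CPM, a 1.15-fold range, and the most uneven of the overlapping members among KP tumors, at 4.23 CPM in 3800 and 41.4 CPM in 3802. The KP tumors thus lay on either side of all dFLEx tumors, and the log2 fold change of -0.47 (SE 0.87, edgeR adjusted p = 0.939) turned to 1.98 without 3802. The 5 other genes listed for the Snrpn-Ndn cluster were mixed. Magel2 overlapped between the groups but was barely detected, at no more than 0.325 CPM in any tumor (8 counts in 3802), so its order is uncertain. Ube3a also overlapped and, like Ndn, was highest in 3802. Peg12, Mkrn3 and Snrpn were higher in every dFLEx tumor, against 13.7% of all genes. Snrpn did so only narrowly, with 170019 at 1.74 CPM and 3802 at 1.63 CPM, a 1.07-fold difference (edgeR adjusted p = 0.654). Other features shared 34.1% of the exon bases of Snrpn. Peg12, a paternally expressed gene of the FRAT family, stood at 48.7, 37.6 and 51.2 CPM in the dFLEx tumors and at 0.645 and 7.88 CPM in 3800 and 3802 (log2 fold change 3.44, SE 1.08, edgeR adjusted p = 0.277). Mkrn3, a paternally expressed ubiquitin ligase, stood at 8.21, 3.54 and 6.61 CPM against 0.134 and 2.28 CPM. Per kilobase, the ratio of Peg12 to Ndn was 3.87, 3.43 and 4.31 in the dFLEx tumors and 0.213 and 0.266 in the KP tumors, a ratio chosen after the values were seen and not tested.

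**Figure D3:**
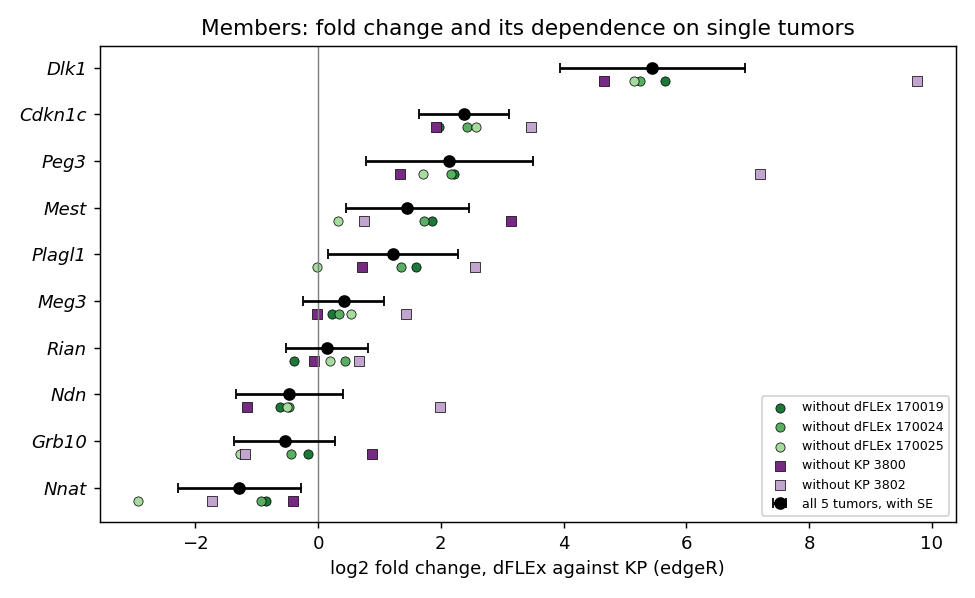
Black points are log2 fold changes of dFLEx against KP (edgeR on all 5 tumors) with the SE as bars, and the colored points below each show the same value with 1 tumor left out. Dlk1, Cdkn1c, Peg3 and Mest stay above 0 throughout, and the points without 3802 (light squares) lie far to the right for Dlk1 and Peg3.

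Tumors of the same model also differed. In 7 of the 10 members 3802 was higher than 3800, and the median ratio of 3802 to 3800 over the members was 3.12. Over all tested genes 53.4% were higher in 3802, and the median ratio was 0.966. Ratios over 3 were seen for Peg3 (64.9), Dlk1 (38.1), Ndn (9.78), Plagl1 (4.02), Cdkn1c (3.22) and Meg3 (3.01), and it was 1.85 for Rian, while Mest (0.214), Grb10 (0.267) and Nnat (0.451) were higher in 3800. All 6 adipocyte and all 5 T cell markers were higher in 3802, and all 6 endothelial and all 5 pericyte markers were higher in 3800. The other lists were mixed. Of the 9 myocyte markers 5 were higher in 3802 (summed 1520 CPM in 3800 and 3910 CPM in 3802). Of the 6 fibroblast markers 4 were higher in 3802, while their sum, carried by Col1a1 and Col1a2, was higher in 3800 (2360 and 1130 CPM). The summed macrophage markers were 854 CPM in 3800 and 3400 CPM in 3802, a difference carried by C1qa, and without it they were 344 and 298 CPM. The part of these differences in the members' values was not tested, and 3802 was represented by 1 library.

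Within the dFLEx tumors, 6 of the 10 members (Dlk1, Peg3, Mest, Plagl1, Grb10 and Nnat) were lowest in 170019 and highest in 170025, with 170024 between, an order that 29% of all tested genes had. CIC_DUX4 had this order as well (105, 202 and 423 CPM) and so did the summed endothelial markers (180, 288 and 514 CPM), with 5 of 6 single genes. The summed fibroblast markers had it too (2280, 4710 and 8790 CPM), but only 3 of the 6 genes did (Col1a1, Col1a2 and Pdgfra). Of the 6 macrophage markers 5 had it, although their sum did not (593, 532 and 445 CPM). The total counts of the tumors also had it (47462244, 60557154 and 82138251). Cdkn1c and Meg3 had the reverse order. With 3 tumors, no relation between these measures was computed.

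Marker genes of several other cell types differed in level between the groups. All 9 myocyte markers had a positive log2 fold change in dFLEx tumors (summed level 7930 to 31300 CPM, against 1520 and 3910 CPM in KP tumors). No gene of any marker list passed the edgeR test. The 6 adipocyte markers also had a positive fold change (281 to 327 CPM, against 26.9 and 151 CPM), as did all 6 fibroblast markers (2280 to 8790 CPM, against 2360 and 1130 CPM) and all 6 endothelial markers (180 to 514 CPM, against 158 and 77.8 CPM). Of the 5 pericyte markers 4 had a positive fold change (588 to 1020 CPM, against 353 and 86.9 CPM). All 5 T cell markers had a negative one (4.16 to 7.06 CPM, against 8.44 and 46.6 CPM), and so did 4 of the 6 macrophage markers (445 to 593 CPM, against 854 and 3400 CPM). Each dFLEx tumor lay above both KP tumors in 6 of the 9 myocyte, 6 of the 6 adipocyte and 4 of the 6 fibroblast markers. The same held for 2 of the 5 pericyte, 2 of the 6 Schwann and neural and 1 of the 6 endothelial markers, against 13.7% of all genes. Each lay below both KP tumors in 4 of the 6 muscle progenitor and 3 of the 6 macrophage markers. So it was for 3 of the 5 T cell and 1 of the 6 Schwann and neural markers, against 11.7% of all genes. Of the 6 muscle progenitor markers 5 had a negative fold change and 1, Des, a positive one. Myf5, a determination factor of muscle precursors, was at 0.174 to 0.798 CPM in dFLEx tumors and at 50.04 and 22.2 CPM in KP tumors. The summed Schwann and neural markers ranged from 36.4 to 73.7 CPM in dFLEx tumors and stood at 41.2 and 30.2 CPM in KP tumors. No marker was at 0 in any tumor. The part of muscle, fat and stroma in the values of Dlk1, Peg3 and Cdkn1c was not tested.

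The 10 members were set beside 39 other imprinted genes that had a row, all of which were tested. None passed the edgeR test (0 of 39, lowest adjusted p 0.117), and 9 had an unadjusted p under 0.05, where 10.6% of all genes did. The 3 dFLEx tumors were all higher than the 2 KP tumors in 13 of the 39 genes and all lower in 4, against 13.7% and 11.7% of all genes, and their median log2 fold change was 0.24. DESeq2 called 6 of the 39 higher in dFLEx tumors (Dio3, Mirg, Rtl1, Klf14, Peg12 and Nap1l5), against 3.46% of all genes, and 1 lower (Zdbf2). Zdbf2, a paternally expressed zinc finger gene, stood at 0.423, 0.607 and 2.02 CPM in dFLEx tumors and at 15.5 and 2.89 CPM in 3800 and 3802. H19, the maternally expressed noncoding RNA of the Igf2 cluster, was abundant in all tumors and overlapped, at 429, 822 and 1127 CPM in dFLEx tumors and at 969 and 444 CPM in 3800 and 3802. Its paternally expressed neighbour Igf2, a fetal growth factor, was at or below 3.21 CPM in each tumor, and 64.6% of its exon bases were shared with other features, so its count is uncertain.

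**Figure D4:**
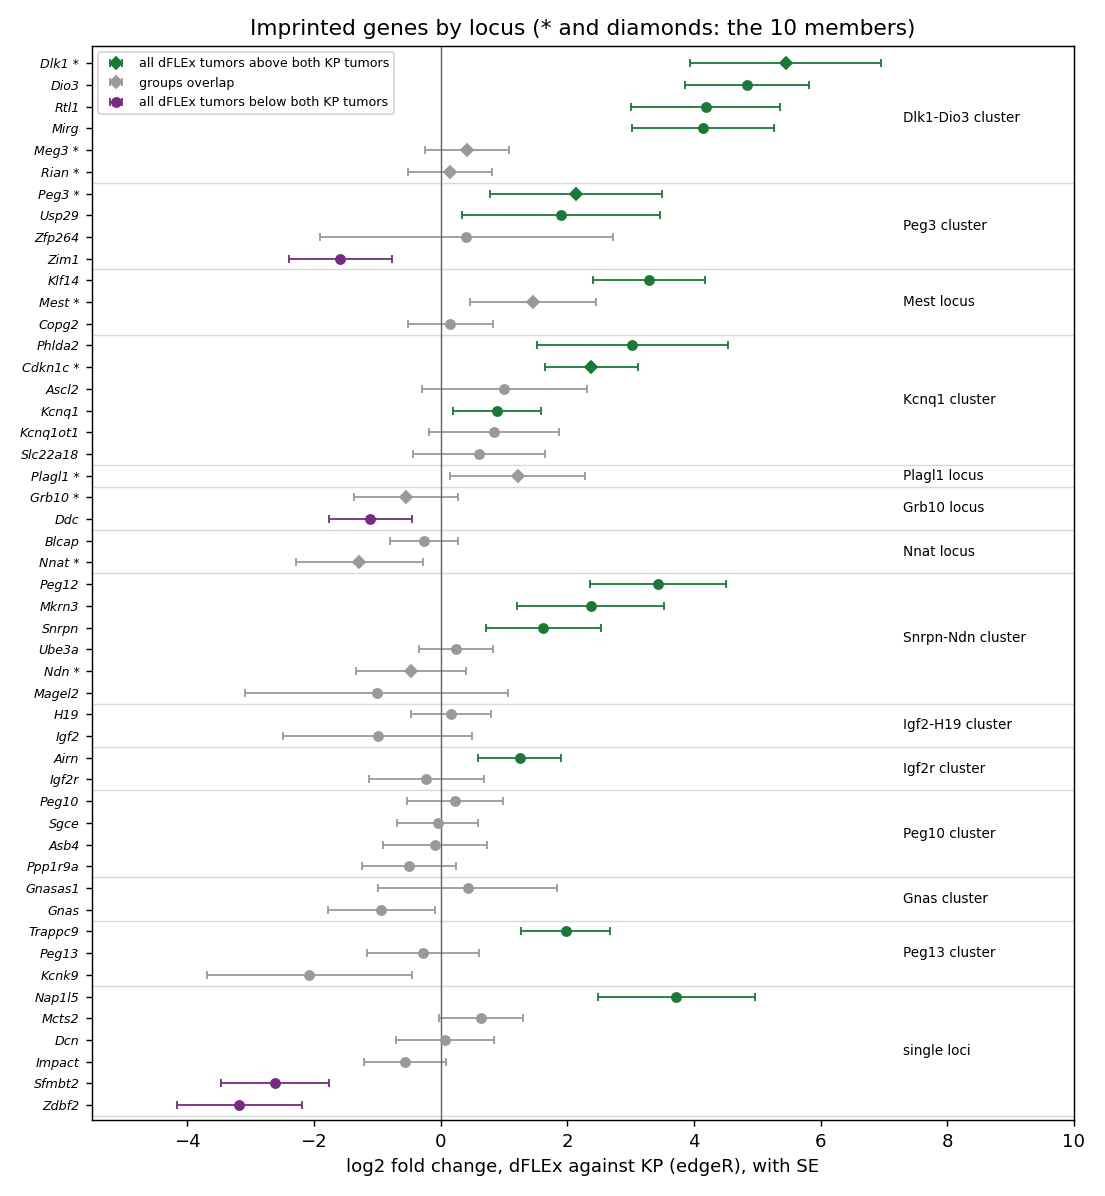
Each symbol is the log2 fold change of dFLEx against KP (edgeR) with its SE for 1 gene, grouped by locus, with the 10 members as diamonds and the 39 other imprinted genes as circles. Green genes have all dFLEx tumors above both KP tumors and purple genes all below, and genes of both colors or of green and grey stand side by side within the same cluster.

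The genes whose profile over the 5 tumors was most like that of Dlk1 were looked up among 15263 genes whose mean level reached 1 CPM. Likeness was the root mean square difference of log2(CPM + 1) after each gene's own mean was removed. The nearest were Trim9, a neuronal ubiquitin ligase (difference 1.10), Pou3f3, a POU-domain transcription factor (1.10), Zic1, a zinc finger transcription factor of the neural plate and somites (1.20), Kpna7, a nuclear import receptor (1.23), and Col9a1, a cartilage collagen (1.27). Peg3 ranked 23, Peg12 50, Dio3 57 and Mirg 61 on this measure, whereas Meg3 ranked 2223 and Rian 5838. Cdkn1c ranked 277, and Grb10 (12886) and Nnat (14596) were among the least like. With 5 tumors in 2 groups, a gene that is high in dFLEx tumors and lowest in 3800, with differences of similar size, ranks near the top. The rank thus depends on the size of the differences as well as their order. Mkrn3 and Snrpn, also higher in every dFLEx tumor and lowest in 3800, ranked 566 and 1381.

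**Figure D5:**
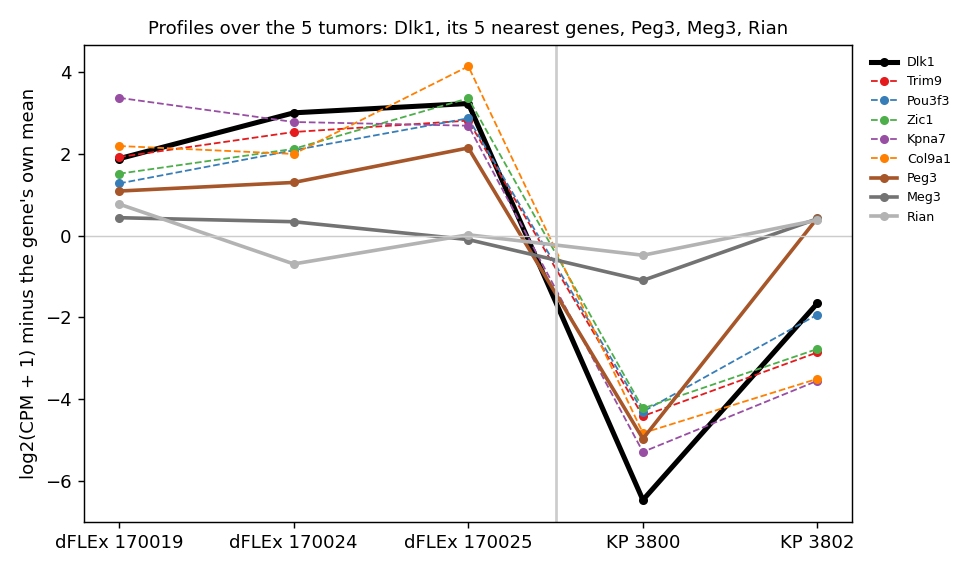
Lines join the values of 1 gene in the 5 tumors, as log2(CPM + 1) minus that gene's own mean, for Dlk1 (black), its 5 nearest genes (dashed), Peg3 (brown), Meg3 and Rian (grey). Dlk1 and its nearest genes are high in the 3 dFLEx tumors and lowest in 3800, and Peg3 in 3802 is level with Meg3 and Rian.

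For the 5 members not named with a position above, the rows lay as follows in GRCm39. Mest lay on chromosome 6 (30723546 to 30748464), Plagl1 on chromosome 10 (12936248 to 13007438), Grb10 on chromosome 11 (11880508 to 11988683), Nnat on chromosome 2 (157401998 to 157404442) and Ndn on chromosome 7 (61996317 to 62000010). All values are sums over annotated exons.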

How the data were processed

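Bulk tumor RNA (rRNA-depleted, paired-end libraries) was measured in 3 dFLEx and 2 KP tumors. The authors trimmed reads with Trimmomatic 0.39, aligned them with STAR 2.7.10a to GRCm39 with the CIC::DUX4 construct added, and deposited raw counts per gene from featureCounts (Subread 2.0.3). Per the file headers, strand was ignored, each mate counted as a read, and reads over several genes were not counted. The study used DESeq2, and its handling of duplicate libraries is not given in the sources used here.

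Symbols came from GENCODE release M39 (56017 of 56750 features). Libraries of a tumor were summed, filtered with filterByExpr, scaled by TMM and tested with edgeR 4.0.16 (glmQLFit, glmQLFTest; R 4.3.3), with Benjamini-Hochberg adjustment over 24743 genes and a threshold of 0.05. SE is the absolute log2 fold change over the square root of F. DESeq2 1.42.0 and limma 3.58.1 gave alternatives, and scripts were tested on simulated data. All members were named, other imprinted genes were named if they passed the filter, and likeness used a pseudocount of 1 CPM. Members and lists were chosen with earlier results of these data known. Of 40 other imprinted genes listed, 39 matched a row. A count of 3 equals 0.0648 to 0.146 CPM per library, for counting error only. Alternatives were other scalings and filters, DESeq2, single libraries, and each tumor left out. One further allele of the KP genotype is not reported here.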

Additional observations from a re-analysis of the deposited data

How the results depend on the processing

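With 3 and 2 tumors, the KP tumors differed by up to 64.9-fold in a member. They differed 283-fold in another imprinted gene, Usp29, but that ratio rests on 2 counts in 3800 and is uncertain. Leaving out a KP tumor leaves 1, which is assumed to vary like the dFLEx tumors. The edgeR count of members called, 0, became 1 without the filter on low counts (Dlk1, with 1.98% of all genes called), 2 with DESeq2 on tumor sums and with libraries as independent samples (Dlk1 and Cdkn1c in both, with 6.13% and 17.1% of all genes called), and 3 with limma-voom and the tumor as a random effect (Dlk1, Peg3 and Cdkn1c, with 2.78%). It ran from 0 to 2 when each tumor was left out, with 2 (Dlk1 and Peg3) only without 3802 (1.64% of all genes called). The count of other imprinted genes called, 0, became 5, 7, 10 and 3 under the same 4 settings and ran from 0 to 4, with the same shares of all genes. The edgeR fits on 9 libraries treat duplicates of 1 RNA as independent. The duplicate numbers did not pair the libraries (correlations of their differences -0.0235 to 0.114 over 6 pairs of tumors). With the duplicate number as a replicate block, 2 members (Dlk1 and Cdkn1c) and 9 other imprinted genes were called, and 2476 genes in all (12.7% of 19538) against 3344 without the block.

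Members higher in every dFLEx tumor numbered 3 under each scaling, filter and test and 3 to 6 with single tumors left out. Members lower in every dFLEx tumor numbered 0, or 1 with upper-quartile scaling, and 0 to 2 with single tumors left out. The median log2 fold change of the members was 0.82, 0.28 with upper-quartile scaling, and 0.26 (without 170025) to 1.71 (without 3802) with single tumors left out. The median over all genes, -0.18, was -0.26 with DESeq2 size factors, -0.34 with upper-quartile scaling and -0.47 with library totals. It also moved with single tumors left out, from -0.26 (without 170025) to 0.34 (without 3802). Signs turned for Rian (log2 fold change -0.21 with library totals, -0.12 with upper-quartile scaling, -0.07 with a mean of at least 1 CPM, -0.39 to 0.68 with single tumors left out), Ndn (0.54 with limma-voom, 0.04 with the replicate block, -1.16 to 1.98), Meg3 (-0.01 to 1.44), Plagl1 (-0.02 to 2.56) and Grb10 (-1.27 to 0.88). The cause was not tested.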
